A study of Mus musculus with 9 samples.

Results

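The genes described here are 47 genes of Wnt signaling, taken from a list of ligands, receptors, antagonists, transducers and target genes and followed across all 9 arrays of the series. Of the 47, 46 were measured, among 19938 genes in all, and Tcf7 is not analysed here. The arrays hold RNA from cell lines grown out of tumors of 4T1, a metastatic mammary carcinoma of the mouse. There were 3 lines from brain metastases (4T1-BM2), 3 from lung metastases (4T1-LM2) and 3 from primary tumors (4T1-T2), each from a different mouse, and all 9 share the 4T1 origin with no other treatment or allele in the labels. They are called brain, lung and primary lines and are numbered by mouse within an origin. All 9 were handled in parallel from thawing to RNA extraction. The levels are those of cultured cells, without the surrounding brain, lung or tumor tissue, and lines of an origin carry a common name. The design text of the series counts 9 independent mice, 3 per cell line, so an origin may go back to a single parental line. The site of origin and such a parental line cannot be told apart here, and p-values measure the spread between the cultured lines.

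Wnt proteins are secreted, lipid-modified ligands. The acyltransferase Porcupine (Porcn) adds the lipid and Wntless (Wls) carries the ligand to the cell surface. At the receiving cell, a Frizzled receptor and the co-receptor Lrp5 or Lrp6 bind the ligand, the Axin-based destruction complex is held in check, and beta-catenin (Ctnnb1) enters the nucleus to act with TCF and LEF factors on target genes such as Axin2 and Lgr5. In the mammary gland this pathway takes part in bud formation and in the upkeep of basal progenitors, while in the developing brain Wnt7a and Wnt7b are known as signals to the growing blood vessels.

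Values are log2 intensities after RMA, a method that corrects background, equalizes arrays and summarizes each probe set. Array levels can be set against each other between lines for a given gene, but not between genes. A gene was called when its limma p, adjusted by Benjamini-Hochberg over all 19938 genes, was under 0.05, and ± marks a standard error of the model unless SD is written. The median of the probe sets without a gene symbol was 4.21, and 40 of the 46 genes had a mean above it in every origin while 5 (Wnt5a, Fzd8, Sfrp2, Sfrp4 and Lgr5) had none. For those 5, and for Wnt2 in primary lines, the level may lie at background. Over all genes, lung line 1 and brain line 3 had the widest spread around the gene medians (interquartile ranges 0.164 and 0.178, against 0.0886 to 0.126 in the other lines). Of the 7 epithelial carcinoma markers all lay above 4.21 in every origin, and Krt14 (log2 change 1.62 ± 0.22) and Cdh1 (0.90 ± 0.19) rose in brain against primary lines. The Cdh1 call did not pass when any line but primary line 1 was dropped in turn (0.0514 to 0.113). Summed over the 7, log2 levels were 75.7 to 76.9 in brain, 70.1 to 73.1 in lung and 70.8 to 72.8 in primary lines. In brain against primary lines Cldn4 (1.39 ± 0.35, limma adjusted p = 0.0656), Krt7 (0.55 ± 0.15, 0.0904) and Epcam (0.45 ± 0.17, 0.230) did not pass. Neither did Krt18 (0.07) and Krt8 (-0.08). The part of these epithelial markers in the results below was not tested. Of 42 markers of fibroblasts, leukocytes, endothelium, neural cells and lung epithelium, 0 passed in that comparison (limma), against 3.13% of all genes. The changes of the 42 lay between -0.36 and 0.24, and 22 had a mean above 4.21 in every origin. The sum of their log2 levels was 187.7 to 192.3 in brain lines, 187.6 to 194.4 in lung lines and 189.8 to 191.2 in primary lines. By mean, the brightest of these markers in their lists were Pdgfra of fibroblasts (7.25 to 7.79 over the 9 lines), Map2 of neurons (6.89 to 7.53), Mbp of oligodendrocytes (6.07 to 6.47) and Cd68 of macrophages (5.73 to 6.22). In the dimmer lists they were Ager of lung alveoli (5.66 to 5.88), Cldn5 of endothelium (5.10 to 5.52), Cd8a of lymphocytes (4.98 to 5.06) and Slc1a2 of astrocytes (4.53 to 4.82). Ptprc of leukocytes (3.63 to 4.02), Tek of endothelium (3.65 to 3.95) and Aqp4 of astrocytes (3.43 to 3.77) lay under 4.21. Other markers were dimmer still, such as Scgb1a1 of lung club cells (2.33 to 2.58).

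Of the 46 genes, 2 differed among the origins, and both were ligands that were higher in brain lines. Wnt7a and Wnt10a rose in brain lines against primary lines and against lung lines, while none of the receptors, antagonists, transducers or the readouts Axin2 and Lgr5 passed in any comparison. In brain against primary lines the count was 2 of 46 (4.35%), against 3.13% of all genes (1.56% higher and 1.57% lower). In brain against lung lines it was again 2 of 46, against 1.98% of all genes (0.913% higher and 1.07% lower). The comparisons share the brain lines and are not independent. In lung against primary lines it was 0 of 46, against 0% of all genes. At an unadjusted p under 0.05, limma passed 6 of 46 in brain against primary lines (15.8% of all genes), 6 in brain against lung lines (14.9%) and 2 in lung against primary lines (4.74%). The counts stand near the background of all genes, so the ligands that passed are described singly. The F test over the 3 origins called the same 2 genes, against 2.36% of all genes.

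Wnt7a encodes a ligand known from limb, nerve and vessel development. Its log2 level was 8.06, 8.59 and 8.76 in brain lines 1 to 3, against 6.35, 7.35 and 7.21 in lung lines and 6.95, 6.71 and 6.17 in primary lines. Every brain line lay above every other line, and the lung and primary lines overlapped. The change was 3.63-fold in brain against primary lines (log2 change 1.86 ± 0.29, 95% interval 1.21 to 2.51, 3 lines per origin, limma adjusted p = 0.0105). Against lung lines it was 2.82-fold (1.496 ± 0.29, interval 0.85 to 2.14, adjusted p = 0.0311). In lung against primary lines the difference was 0.36 ± 0.29 with an interval from -0.28 to 1.01 (adjusted p = 0.975), and it was the only one of the 46 genes whose interval reached past 1 there. The call against primary lines held whichever line was dropped, with a log2 change of 1.64 to 2.07. The call against lung lines did not pass when brain line 2 (adjusted p = 0.0957) or 3 (0.114), lung line 1 (0.0852), 2 (0.0800) or 3 (0.0783), or primary line 2 (0.0607) was dropped, although the change stayed between 1.185 and 1.702.

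Wnt10a encodes a ligand best known from tooth, hair and skin appendages. Its log2 level was 7.35, 7.37 and 7.27 in brain lines, against 6.70, 6.44 and 6.66 in lung lines and 6.59, 6.49 and 6.44 in primary lines. The brain lines stood within a narrow band above all the others, and lung and primary lines overlapped. It was 1.76-fold higher in brain than in primary lines (0.82 ± 0.08, interval 0.63 to 1.005, adjusted p = 0.00175) and 1.66-fold higher than in lung lines (0.73 ± 0.08, interval 0.54 to 0.92, adjusted p = 0.00571). Both calls held whichever single line was left out. In lung against primary lines the difference was 0.09 ± 0.08 (interval -0.10 to 0.28).

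**Figure D1:**
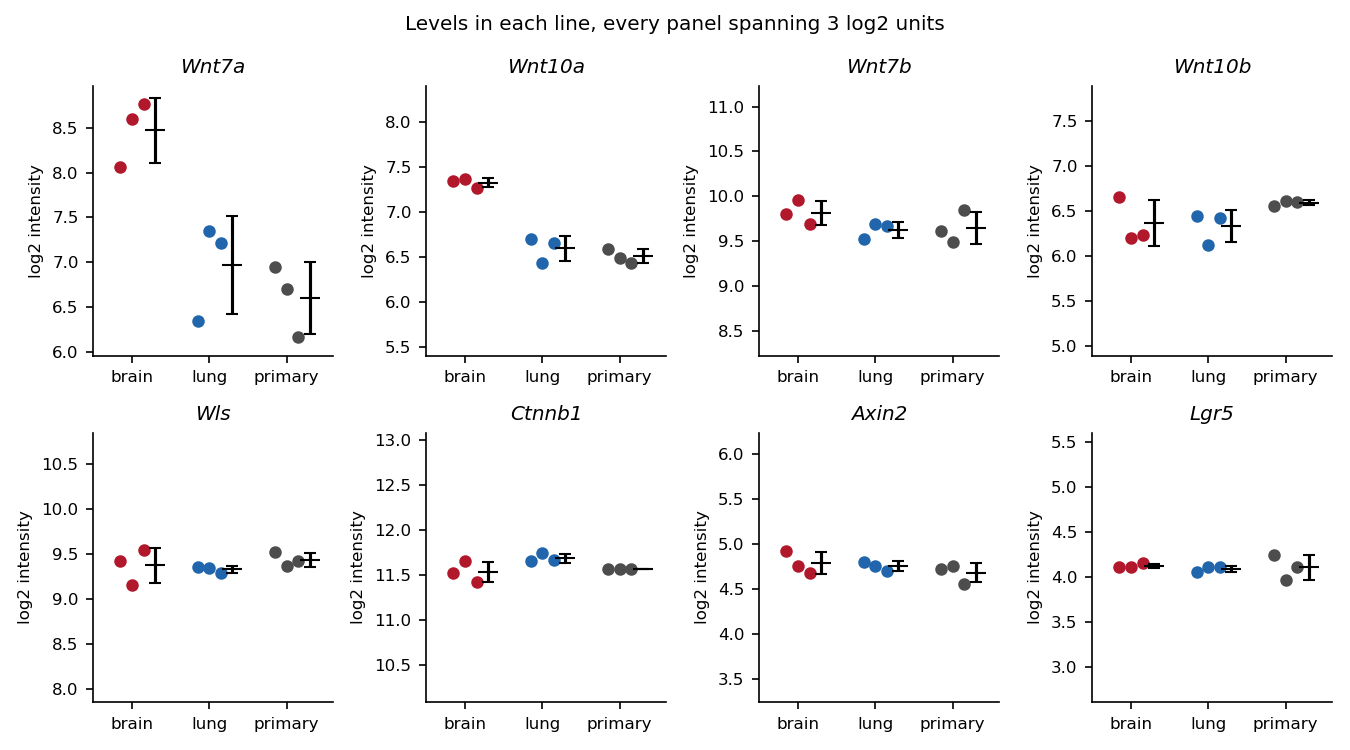
Log2 intensity of 8 Wnt genes in each line (points) with the mean and SD of the 3 lines per origin (bars), brain, lung and primary lines from left to right, each panel spanning 3 log2 units. Brain lines stand apart for Wnt7a and Wnt10a, and overlap both other origins for Wnt7b, Wnt10b, Wls, Ctnnb1, Axin2 and Lgr5.

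The closest relatives of these ligands, picked out here after their values were seen, did not pass. Wnt7b stood at 9.80, 9.96 and 9.69 in brain lines, 9.53, 9.69 and 9.67 in lung lines and 9.62, 9.496 and 9.85 in primary lines. These ranges overlap, and the change in brain against primary lines was 0.16 ± 0.10 (interval -0.07 to 0.40, adjusted p = 0.530). Wnt10b, a ligand of the early mammary bud, was at 6.66, 6.20 and 6.24 in brain lines, 6.44, 6.12 and 6.42 in lung lines and 6.56, 6.61 and 6.60 in primary lines. Its primary lines lay close together above all 3 lung lines, with a difference of -0.26 ± 0.13 in lung lines and -0.23 ± 0.13 in brain lines (adjusted p = 0.975 and 0.460).

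Of the 15 ligands, 2 rose (1.56% of all genes did), 0 fell (1.57%) and 13 did not pass in brain against primary lines, and their median log2 change was 0.07, beside 0.005 over all genes. After Wnt7a and Wnt10a the largest value was that of Wnt9a, at 0.29 ± 0.17 (adjusted p = 0.497). It stood at 6.86, 6.15 and 6.41 in brain lines and 6.07, 6.22 and 6.27 in primary lines, so brain line 1 was high, brain line 3 lay just above the primary lines and brain line 2 among them. Wnt3a, which is used in culture as the standard activator of beta-catenin, had a change of -0.21 (adjusted p = 0.418). The Wnt4 gene had a second, dimmer probe set, and was the only one of the 46 with more than 1.

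The promoters of Wnt7a, the called ligand for which RefSeq's table has an entry, and of the readout Axin2 are shown with that of Dkk1, an antagonist whose window holds the core letters bound by TCF and LEF factors. Each run is the 250 bases before the annotated start (GRCm38.p6), read along the gene's strand, with CTTTGA (the TCF/LEF core) and GGGCGG (the GC box core) in capitals on either strand, so that TCAAAG and CCGCCC are the same letters on the other strand. Wnt7a is at chr6:91411354-91411603 on the minus strand, Axin2 at chr11:108920099-108920348 on the plus strand and Dkk1 at chr19:30549497-30549746 on the minus strand.
Wnt7a: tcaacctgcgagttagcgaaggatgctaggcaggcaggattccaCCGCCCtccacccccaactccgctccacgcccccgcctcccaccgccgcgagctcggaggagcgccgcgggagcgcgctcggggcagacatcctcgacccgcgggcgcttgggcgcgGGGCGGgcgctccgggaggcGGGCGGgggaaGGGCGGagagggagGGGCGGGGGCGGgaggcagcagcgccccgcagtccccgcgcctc
Axin2: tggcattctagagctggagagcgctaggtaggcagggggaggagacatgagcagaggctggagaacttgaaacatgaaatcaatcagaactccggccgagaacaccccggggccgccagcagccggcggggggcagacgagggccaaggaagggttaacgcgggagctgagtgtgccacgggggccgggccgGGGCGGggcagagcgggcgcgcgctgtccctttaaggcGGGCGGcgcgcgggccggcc
Dkk1: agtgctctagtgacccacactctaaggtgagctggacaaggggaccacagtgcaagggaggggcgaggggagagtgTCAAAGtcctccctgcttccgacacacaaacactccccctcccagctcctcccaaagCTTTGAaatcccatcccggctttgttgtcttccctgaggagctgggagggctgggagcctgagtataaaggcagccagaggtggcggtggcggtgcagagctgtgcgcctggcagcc
The Wnt7a window is 77.6% G and C and holds 6 GC box cores, including a pair end to end, and no TCF/LEF core. The Axin2 window is 69.2% G and C with 2 GC box cores and no TCF/LEF core, and the Dkk1 window holds 2 TCF/LEF cores and no GC box core. Promoter windows were found for 32 of the 47 genes, in 41 windows. Of these 41, 30 held a GC box core and 5 (of Dkk1, Fzd1, Lef1, Wnt11 and Wnt5b) a TCF/LEF core, while 32.7% and 13.8% of all 32851 windows held them. A gene with several windows counts more than once, the windows were not matched for G and C content, and the difference in shares was not tested. A match describes the letters in the window and shows no binding.

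For ligand release, neither gene passed. Wls was at 9.43, 9.16 and 9.54 in brain lines, 9.36, 9.34 and 9.29 in lung lines and 9.52, 9.37 and 9.42 in primary lines. The brain range covered both others, the lung lines lay just below the primary lines, and the change against primary lines was -0.06 ± 0.10 (interval -0.28 to 0.16). Porcn was at 5.69, 6.03 and 5.26 in brain lines, 5.77, 5.66 and 5.58 in lung lines and 5.69, 5.51 and 5.42 in primary lines. Its brain lines were the most scattered, and the change was 0.12 ± 0.16 (interval -0.25 to 0.49).

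Of the 10 Frizzled receptors, none passed in any comparison, and their median log2 change was -0.08 in brain against primary lines. For 7 of the 10 the mean of the brain lines was the lower. Fzd5 came nearest to a call, with 6.61, 6.59 and 6.39 in brain lines, 6.61, 6.58 and 6.61 in lung lines and 6.77, 6.89 and 6.78 in primary lines. All 6 metastasis lines lay below the 3 primary lines, with changes of -0.28 ± 0.08 in brain lines (adjusted p = 0.0835) and -0.21 ± 0.08 in lung lines (adjusted p = 0.975). Fzd2 was at 7.21, 7.15 and 7.13 in brain lines and 7.43, 7.32 and 7.59 in primary lines, without overlap (-0.29 ± 0.10, adjusted p = 0.184). Fzd3 had a change of -0.20 ± 0.09 (adjusted p = 0.318).

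Against lung lines, the Frizzled values with the largest size were those of Fzd4 (-0.26 ± 0.11, adjusted p = 0.294), Fzd7 (0.24 ± 0.07, adjusted p = 0.142) and Fzd6 (0.20 ± 0.07, adjusted p = 0.229). Fzd7, a receptor of basal and progenitor cells in the mammary gland, stood at 8.92, 8.93 and 9.02 in brain lines, 8.60, 8.74 and 8.81 in lung lines and 8.93, 8.97 and 9.01 in primary lines. The lung lines lay below all the rest, and brain and primary lines overlapped. Fzd6 was at 10.08, 9.89 and 10.01 in brain lines, 9.78, 9.88 and 9.72 in lung lines and 9.85, 9.80 and 9.86 in primary lines, so that the brain lines were highest by a narrow margin.

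None of the 3 co-receptors passed. Lrp5, which joins Frizzled in binding Wnt, was at 8.94, 9.15 and 8.91 in brain lines, 9.32, 9.29 and 9.15 in lung lines and 9.27, 9.33 and 9.12 in primary lines. Brain lines lay below the lung lines and overlapped the primary lines, with changes of -0.26 ± 0.09 (adjusted p = 0.206) and -0.24 ± 0.09 (adjusted p = 0.213). Lrp6 had a change of -0.08 ± 0.08 and Ror2, a co-receptor of the beta-catenin-independent branch, of 0.13 ± 0.12 in brain against primary lines.

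The turnover of Frizzled is set by the ligases Rnf43 and Znrf3 and, through R-spondins, by the Lgr receptors. None of the 4 measured here passed. Lgr6 had the largest negative value of all 46 genes in brain against primary lines, at -0.36 ± 0.16 (interval -0.72 to -0.004, adjusted p = 0.311). It was at 8.13, 7.75 and 7.67 in brain lines and 8.43, 8.03 and 8.18 in primary lines, and brain line 1 reached into the primary range. Lgr4 (0.15 ± 0.17) and Rnf43 (0.04 ± 0.11) did not pass either, nor did Znrf3 (-0.01 ± 0.09).

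Of the 7 secreted antagonists, which bind Wnt proteins (Sfrp2, Sfrp4, Sfrp5, Wif1) or the Lrp co-receptors (Dkk1, Dkk2), or have a less settled role (Dkk3), none passed. Sfrp2 and Sfrp4 lay below 4.21 in all origins. Among the other 5, the largest log2 changes in brain against primary lines were those of Sfrp5 (0.12 ± 0.08), Wif1 (-0.11 ± 0.12) and Dkk3 (-0.05 ± 0.07). Dkk1, whose promoter is printed above, stood at 5.51, 5.48 and 5.51 in brain lines, 5.74, 5.58 and 5.26 in lung lines and 5.51, 5.37 and 5.51 in primary lines, so the lung lines spanned the other groups.

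Among the transducers, Ctnnb1 stood at 11.52, 11.65 and 11.42 in brain lines, 11.65, 11.74 and 11.66 in lung lines and 11.57, 11.57 and 11.56 in primary lines. The lung lines lay above the primary lines by 0.12 ± 0.07 (adjusted p = 0.975), and brain lines overlapped both. Axin1, a scaffold of the destruction complex, had a change of 0.04 ± 0.12 in brain against primary lines. Lef1, a nuclear partner of beta-catenin, was set apart by a single line: it stood at 5.33, 5.33 and 5.33 in brain lines, 5.40, 5.17 and 5.29 in lung lines and 5.33, 5.33 and 6.16 in primary lines. Primary line 3 was high and the other 8 lines lay together, which gave changes of -0.28 ± 0.19 in brain and -0.325 ± 0.19 in lung lines (adjusted p = 0.568 and 0.975).

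The readouts were set beside the ligands. Axin2, a feedback gene switched on by beta-catenin in many tissues, was at 4.92, 4.76 and 4.68 in brain lines, 4.81, 4.76 and 4.70 in lung lines and 4.73, 4.76 and 4.56 in primary lines. The 3 origins overlapped, with a change of 0.10 ± 0.09 in brain against primary lines (interval -0.09 to 0.29, adjusted p = 0.662) and 0.03 ± 0.09 against lung lines (interval -0.16 to 0.22, adjusted p = 0.923). The mean of Axin2 over the 9 lines was 4.74, and 40.7% of the probe sets without a gene symbol had a mean at or above it. Its level may thus lie near background, where a change can be missed. Lgr5, a target and stem cell marker, was at 4.12, 4.11 and 4.15 in brain lines, 4.05, 4.12 and 4.11 in lung lines and 4.25, 3.97 and 4.11 in primary lines. All its origin means lay under 4.21, so no change is read from it. The log2 intervals of brain against primary lines therefore ran from 1.21 to 2.51 for Wnt7a, from 0.63 to 1.005 for Wnt10a and from -0.09 to 0.29 for Axin2, and the difference between ligand and readout was not itself tested.

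**Figure D2:**
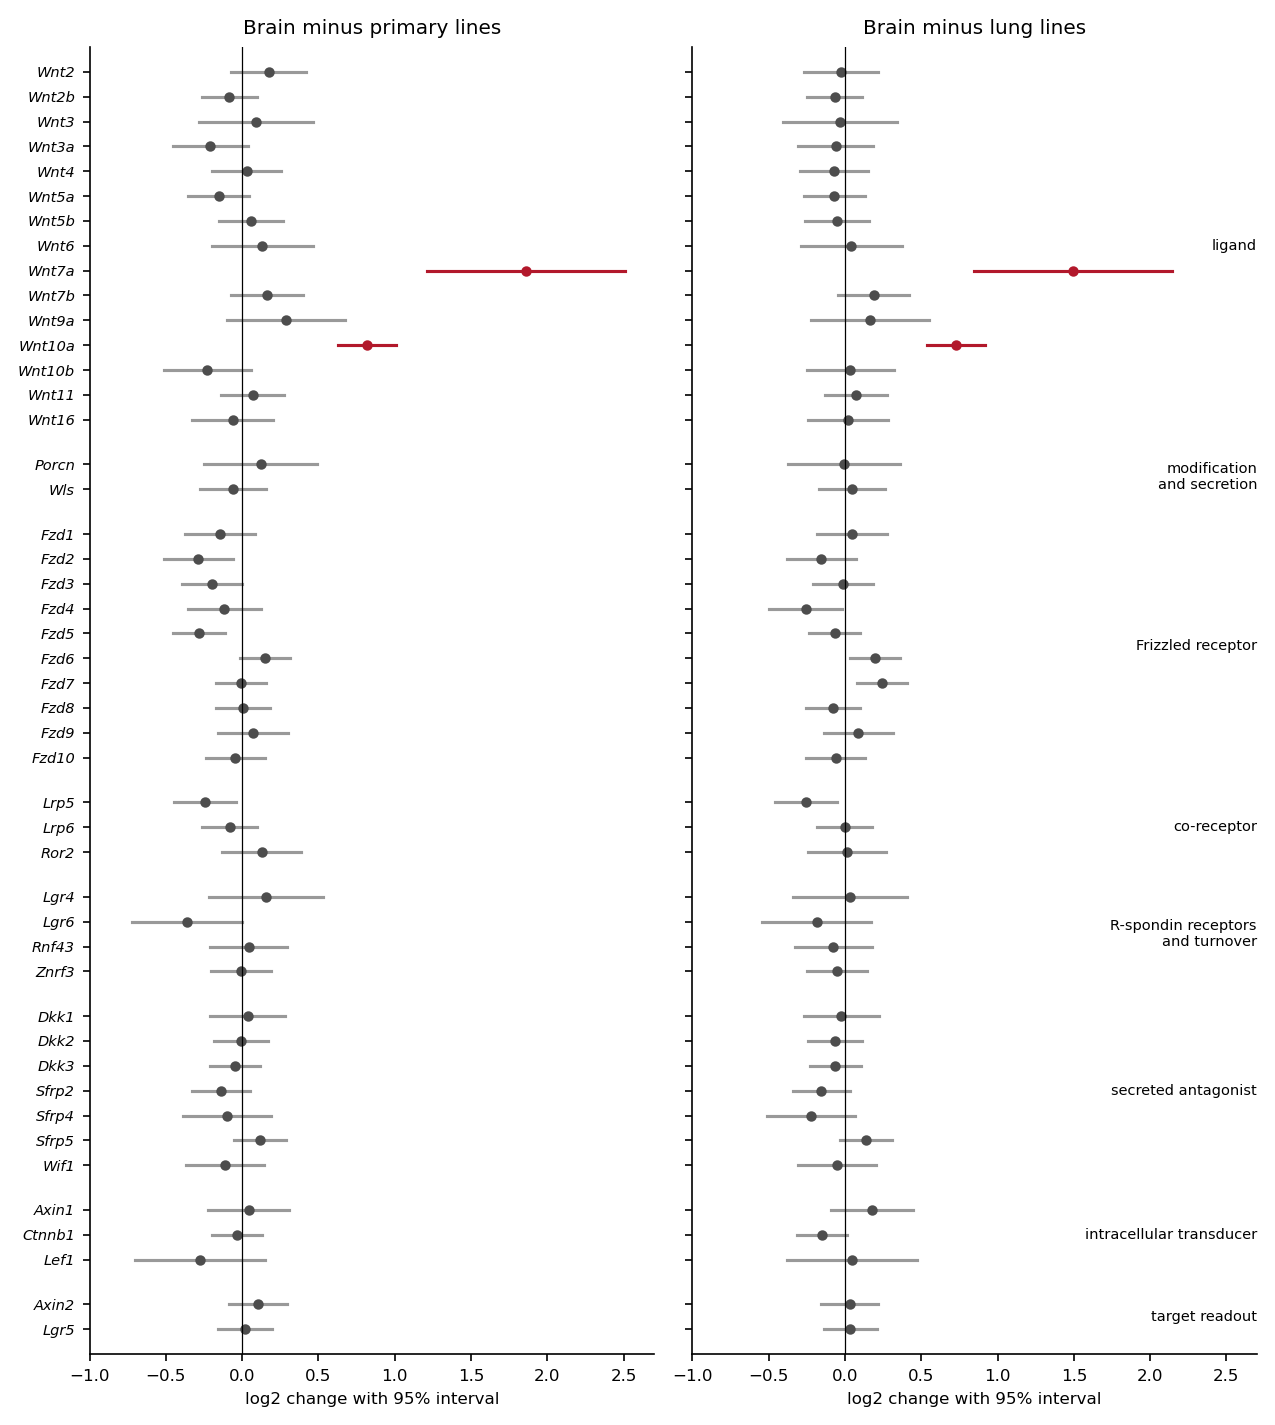
Log2 change of the 46 genes with 95% intervals, brain minus primary lines on the left and brain minus lung lines on the right, ordered by role, with called genes in red. The points of Wnt7a and Wnt10a lie to the right of all others in both panels, and the intervals of the other 44 genes stay within 1 log2 unit of 0.

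In brain against primary lines, the 95% intervals of all 44 genes that were not called lay within 1 log2 unit of 0, a 2-fold change, and those of 38 within 0.5. In brain against lung lines these counts were 44 and 41. In lung against primary lines they were 45 and 41 of 46, the exception at 1 being Wnt7a. The intervals are per gene and not adjusted for the number of genes.

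Over the 9 lines, the gap between the highest and the lowest line was 2.59 for Wnt7a, 0.99 for Lef1 and 0.93 for Wnt10a, with a median of 0.44 over the 46 genes and 0.42 over all genes. In 5 of the 46 genes, no brain line fell within the range of the primary lines or the reverse (10.9%, against 17.8% of all genes). They were Wnt7a, Wnt10a and Fzd6 on the higher side (9.36% of all genes) and Fzd2 and Fzd5 on the lower (8.47%). Brain and lung lines did not overlap in 5 (against 16.9%), with Wnt7a, Wnt10a, Fzd6 and Fzd7 higher (8.27%) and Lrp5 lower (8.63%). Lung and primary lines did not overlap in 5 (against 8.71%), with Ctnnb1 higher (4.88%) and Wnt10b, Wls, Fzd5 and Fzd7 lower (3.84%). In 18 of the 46 genes, at least 3 lines had the same value to 4 decimals, such as Lef1 with 4 lines, and over all genes this held for 35.1%.

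**Figure D3:**
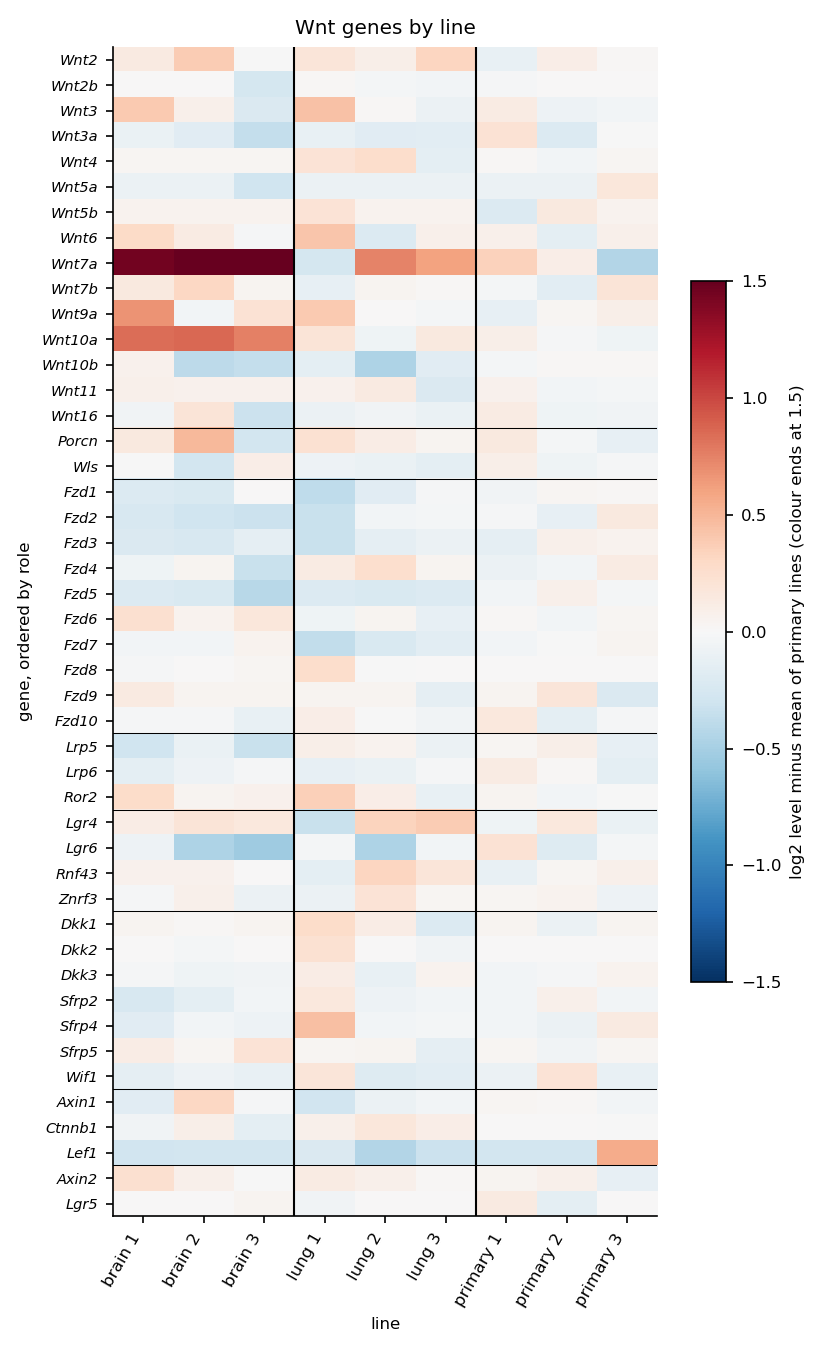
Log2 level of each of the 46 genes minus its mean in primary lines, by line (columns) and gene in order of role (rows), red for higher and blue for lower, with the colour ending at 1.5. The rows of Wnt7a and Wnt10a are red in all 3 brain lines, and Lef1 is red in primary line 3.

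The other genes of the pathway came from a list of 73, all of them measured. In brain against primary lines 1 rose (1.56% of all genes did), 3 fell (1.57%) and 69 did not pass, with a median log2 change of 0.001. In brain against lung lines 0 passed (limma, 1.98% of all genes did), and in lung against primary lines 0 (0%). At an unadjusted p under 0.05, limma passed 15 of 73 in brain against primary lines (15.8% of all genes). It passed 17 in brain against lung lines (14.9%) and 2 in lung against primary lines (4.74%). Of the 15 commonly cited targets and feedback genes, Ccn4 rose, Sox9 fell and 13 did not pass in brain against primary lines. Over the 15, 7 had a higher mean in brain lines. Myc, picked out after its values were seen, did not pass (0.35 ± 0.115, limma adjusted p = 0.156), with every brain line above every other line. Ccn4, a matricellular protein gene first described as a Wnt1-induced gene, was at 6.67, 6.40 and 7.30 in brain lines and 5.61, 5.73 and 5.88 in primary lines. The groups were apart and brain line 3 was highest, with a 2.07-fold change (1.05 ± 0.19, adjusted p = 0.0197). It did not pass when primary line 1 (0.0791) or 2 (0.0707) was dropped.

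Sox9, a transcription factor of progenitor cells and a Wnt target in the intestine, was at 9.11, 9.07 and 9.06 in brain lines, 9.37, 9.40 and 9.25 in lung lines and 9.57, 9.58 and 9.55 in primary lines. The 3 origins did not overlap, with brain lowest and primary highest. The change in brain against primary lines was -0.49 ± 0.06 (adjusted p = 0.00518) and held whichever line was dropped. Against lung lines it was -0.26 ± 0.06 (adjusted p = 0.0814). The targets that passed thus moved in opposite directions.

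Of the 10 planar polarity and non-canonical receptors, Celsr1, a polarity cadherin, fell by 0.52 ± 0.11 on the log2 scale (adjusted p = 0.0404). It did not pass when brain line 2 (0.0935) or 3 (0.108), lung line 1 (0.0623) or primary line 1 (0.125), 2 (0.103) or 3 (0.104) was dropped. Of the 15 genes of the destruction complex and relay, Tnks, which encodes a tankyrase that marks Axin for breakdown, fell by 0.44 ± 0.08 (adjusted p = 0.0260). It did not pass when brain line 1 (0.0735), 2 (0.0598) or 3 (0.0662) or primary line 1 (0.0836) or 2 (0.0882) was dropped, or with arrays centred on their medians (0.0535). Against lung lines Tnks had a change of -0.37 ± 0.08 (adjusted p = 0.0612). It passed there under 5 of 21 alternative ways of processing, among them the mouse number as a block (0.0388). None of the 12 nuclear factors and none of the 21 other ligands and extracellular modulators passed.

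**Figure D4:**
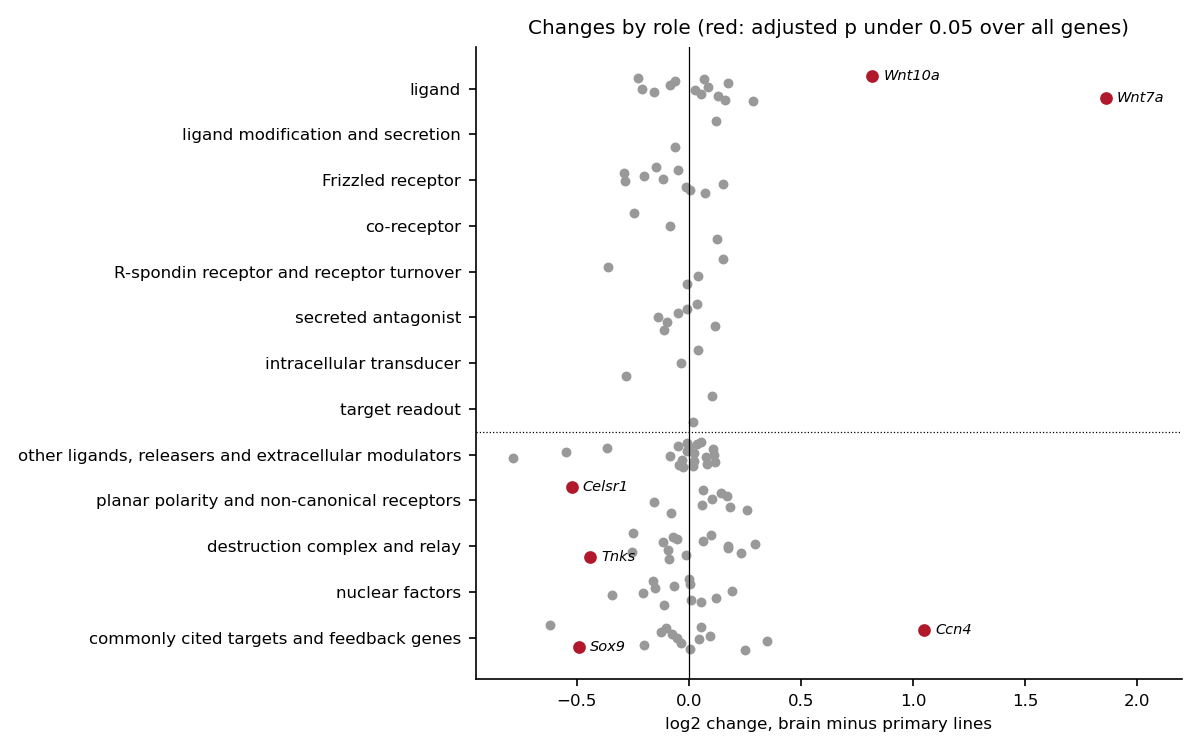
Log2 change in brain minus primary lines for each gene (points) of the 8 roles among the 46 genes (above the dotted line) and of the 5 lists of other pathway genes (below it), with called genes in red and named. Called genes are Wnt7a, Wnt10a and Ccn4 to the right of 0, and Sox9, Celsr1 and Tnks to its left.

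Wnt7a and Wnt7b reach endothelial cells of the brain through Reck and Adgra2 (Gpr124), which form a receptor complex particular to those ligands. This pair was looked up after the Wnt7a values were known. Reck was at 5.72, 5.82 and 5.87 in brain lines, 5.97, 5.998 and 6.03 in lung lines and 6.01, 6.17 and 6.15 in primary lines. The brain lines lay below all the others, and the change against primary lines was -0.31 ± 0.07 (adjusted p = 0.0494). It did not pass when any of the 9 lines was dropped in turn (0.0605 to 0.151). Adgra2 did not pass (0.23 ± 0.13, adjusted p = 0.476).

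Position along the chromosome was compared as well, with the 4 nearest measured protein-coding genes on each side, a choice made after the Wnt7a values were seen. Around Wnt10a none of 8 neighbours passed, with changes between -0.17 and 0.26 in brain against primary lines, and the adjoining ligand gene Wnt6 was at 0.13 ± 0.15. Around Wnt7a, 2 of 8 passed in brain against primary lines, against 3.13% of all genes, and 1 of 8 in brain against lung lines, against 1.98%. Chchd4, the next measured gene on one side, which encodes a mitochondrial import protein, stood at 8.004, 7.999 and 8.395 in brain lines, 7.34, 7.63 and 7.70 in lung lines and 7.57, 7.61 and 7.42 in primary lines. The brain lines lay above all others, with a change against primary lines of 0.60 ± 0.13 (adjusted p = 0.0381), and against lung lines of 0.58 ± 0.13 (adjusted p = 0.0550). The call against primary lines did not pass when 1 brain line (0.0560 to 0.0830), 1 primary line (0.0888 to 0.121) or lung line 2 (0.0680) or 3 (0.0561) was dropped.

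Nup210, a nuclear pore gene 3 places away on the other side, stood at 7.14, 7.39 and 7.57 in brain lines, 6.39, 6.70 and 6.50 in lung lines and 6.65, 6.17 and 6.49 in primary lines. Again the brain lines were above all others, with changes of 0.93 ± 0.14 against primary lines (adjusted p = 0.0106) and 0.83 ± 0.14 against lung lines (adjusted p = 0.0220). The call against lung lines did not pass when brain line 2 (0.0700) or 3 (0.0733) or 1 lung line (0.0656 to 0.0871) was dropped. The call against primary lines did not pass without lung line 1 and brain line 3 together (0.0555). Fbln2, a matrix gene and the next measured one on that side, had a change of 0.88 ± 0.22 against primary lines (adjusted p = 0.0702). Hdac11, which lies between Fbln2 and Nup210, was at 0.06 ± 0.12.

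**Figure D5:**
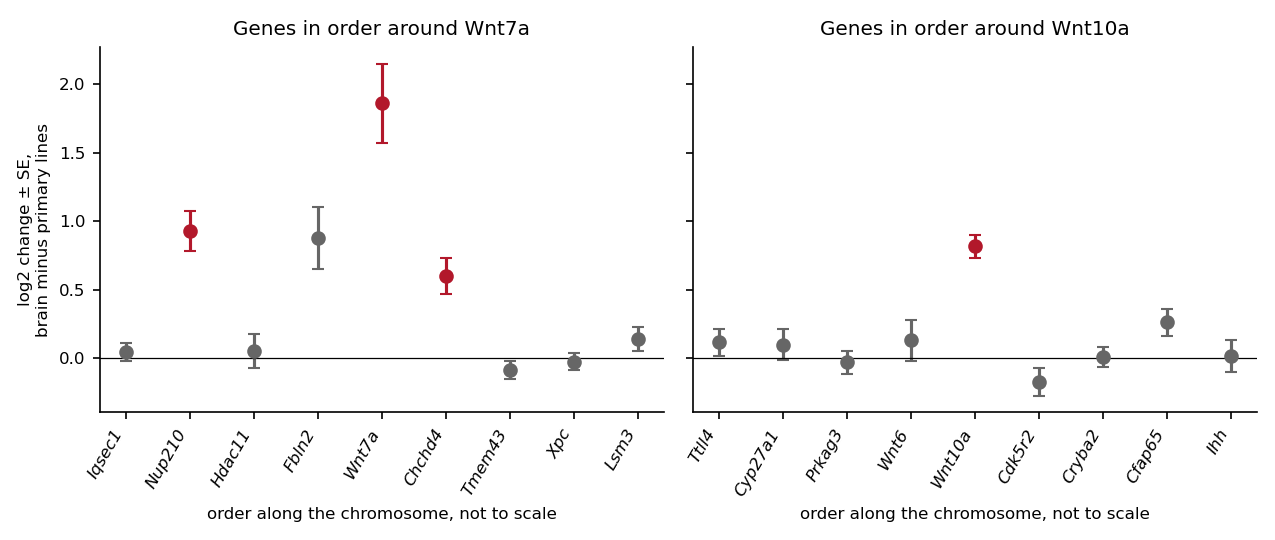
Log2 change ± SE in brain minus primary lines for Wnt7a (left) and Wnt10a (right) and the 4 nearest measured protein-coding genes on each side, in order along the chromosome and not to scale, with called genes in red. Nup210 and Chchd4 are called beside Wnt7a, and none beside Wnt10a.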

How the data were processed

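The values the authors deposited are log2 intensities from RMA, as the submitters' processing notes name it; base 2 is inferred from the range, and the RMA version and genome build were not given in the sources used here. Deposited were 35557 probe sets. Per the platform annotation, 21789 had exactly 1 gene symbol, 1621 several and 12147 none. Only the first kind was used, and the probe set with the highest mean stood for each of 19938 genes. With arrays, their number (9) limits the precision. Reference names and promoter windows came from RefSeq (GRCm38.p6).

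One limma model (version 3.58.1, R 4.3.3) with 1 mean per origin, fitted to the 9 arrays together, gave the 3 contrasts and an F test, two-sided, with 6 residual and 3.72 prior degrees of freedom. The model was run on simulated data with independent lines, which cannot show how it handles related lines. Single genes have no permutation test here, because with 3 lines per origin its smallest exact p is 0.1. The members and lists were chosen with earlier results of these data known. The naming rule gave every line's value for called genes and for Axin2, Lgr5, Lef1, Ctnnb1, Wls and Porcn, and up to 3 further genes per role with the largest change. Of other pathway genes, called ones were named. Names outside it are marked as chosen afterwards, or stand among the 46 genes.

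Mice carry numbers 1 to 3 within every origin in the labels. Between brain and lung lines, deviations of same-numbered lines from their origin means had correlations across genes of 0.284, 0.130 and 0.241. They were 0.067, -0.001 and -0.044 between brain and primary lines, and 0.221, 0.079 and 0.008 between lung and primary lines. A criterion of 0.1 in every same-numbered pair was met between brain and lung lines only. The labels do not say what a shared number stands for, and the source of these correlations was not tested. A model with the number as a block was an alternative. The other alternatives were another normalization, centring, a filter on dim genes, other variance models, array weights, other probe set rules, only the 6 arrays compared, a threshold of 0.01 and leaving out each line.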

Additional observations from a re-analysis of the deposited data

Results flagged for a closer look

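Wnt7a and Wnt10a are listed here because their change against primary lines differed between brain and lung lines, by the test of that difference. The difference was 1.496 ± 0.29 on the log2 scale for Wnt7a (SE, limma adjusted p = 0.0311, all 3 brain lines above all 3 lung lines) and 0.73 ± 0.08 for Wnt10a (adjusted p = 0.00571, likewise 3 of 3). Both changes share the primary lines, which cancel in the difference, so that it is the brain against lung comparison given above.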

How the results depend on the processing

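Wnt10a was called in brain against primary lines under all 21 alternatives and in brain against lung lines under 20, the exception being the model without moderation of the variances (adjusted p = 0.0677). Wnt7a was called under 19 of 21 in brain against primary lines, missing without moderation (0.106) and at a threshold of 0.01, and under 11 of 21 in brain against lung lines. The count of Wnt genes called in brain against primary lines was 2, and 1 without moderation or at 0.01, and 2 whichever line was left out. In brain against lung lines it was 1 with only the 6 arrays compared and at 0.01, 0 without moderation, 1 or 2 when a line was left out, and 1 without lung line 1 and brain line 3 together, an alternative chosen after seeing the data. In the F test it was 1 at 0.01, 1 or 2 when a line was left out, and 1 without those lines together. In lung against primary lines it stayed at 0, with 2 of 46 at an unadjusted p under 0.05.

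Over all genes, the 624 calls in brain against primary lines (311 higher, 313 lower, and 459 higher with 218 lower when arrays were centred on their medians) became 197 with only the 6 arrays compared, 51 without moderation, 157 at 0.01, 323 without lung line 1 and brain line 3, and 273 to 556 without 1 line. The 395 in brain against lung lines (182 higher, 213 lower, and 296 with 146 when centred) became 107, 3, 66, 87 and 69 to 417 in the same order. For lung against primary lines limma gave 0, with 946 genes at an unadjusted p under 0.05, and 1 without moderation. With the mouse number as a replicate block, Wnt7a (adjusted p = 0.0338) and Wnt10a (0.00683) were still called in brain against lung lines, all genes gave 566 calls, and no call changed among the 46 genes in any comparison. Of the other named genes, the block changed the call of Cdh1 (0.0538, no longer called) and Fbln2 (0.0226, now called) in brain against primary lines and of Tnks in brain against lung lines. In brain against primary lines, Ccn4, Celsr1, Tnks, Reck, Nup210, Chchd4 and Cdh1 did not pass with only the 6 arrays compared (limma adjusted p = 0.0572 to 0.118). Nor did they pass without moderation (0.088 to 0.179), where Krt14 did not pass either (0.0741). Lgr5, with all origin means under 4.21, allows no statement on its change.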

Other observations

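The following 3 Wnt inhibitors outside the 46 genes were picked out after their values were seen, and none passed. All 3 had lower means in brain than in primary lines, but their lists did not move as a whole. On the list of 21 that holds Sfrp1 and Notum, 11 had a higher mean, among them Trabd2b (0.12), Kremen1 (0.11) and Dkk4 (0.055). The median log2 change there was 0.001. On the list of 15 that holds Apcdd1, 7 had a higher mean. Sfrp1, a secreted Wnt-binding antagonist, stood at 7.72, 7.69 and 6.41 in brain lines, 7.96, 8.22 and 7.97 in lung lines and 7.81, 8.06 and 8.30 in primary lines (brain against primary lines -0.78 ± 0.30, adjusted p = 0.231, and -0.35 without brain line 3). Apcdd1, a membrane inhibitor of Wnt signaling, stood at 8.80, 8.95 and 8.11 in brain lines, 9.22, 9.34 and 9.37 in lung lines and 9.15, 9.13 and 9.43 in primary lines (-0.62 ± 0.19, adjusted p = 0.126, and -0.36 without brain line 3). In both genes every brain line was below every other line and brain line 3 was lowest. Notum, which removes the lipid from Wnt proteins, stood at 6.20, 5.85 and 5.14 in brain lines, 6.53, 6.37 and 6.44 in lung lines and 6.40, 6.36 and 6.07 in primary lines. Its brain lines lay below the lung lines (-0.72 ± 0.22, adjusted p = 0.146, and -0.42 without brain line 3) and overlapped the primary lines, and brain line 3 was again lowest.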
